A study of Homo sapiens with 12 samples.

Results

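The mRNAs of the aminoacyl-tRNA synthetases were followed in AC16 cells and in the exosomes that these cells release. The set was the count rows of named cytosolic and mitochondrial synthetase genes, with older symbols that lack the final 1 taken as the same gene, and it held 35 of the 15414 genes listed in the series. All 35 were listed in cells and 34 in exosomes. VARS2 was the gene not listed in exosomes, so it was analysed in cells only. They comprised 19 cytosolic enzymes, of which GARS1 and KARS1 also serve mitochondria, and 16 mitochondrial enzymes. AC16, an established human cell line, goes back to a fusion of ventricular cardiomyocytes with fibroblasts, and exosomes are small vesicles that cells secrete. The libraries formed 4 groups of 3: exosomes labelled Ang, exosomes labelled Con, whole cells labelled Ang and whole cells labelled Con. The labels do not spell out Ang or Con, give no dose or time, and name the AC16 line for every library. Nothing in them says whether replicates were grown as separate cultures, so a p-value here reflects how far single libraries differ, possibly for technical reasons alone. Exosomal RNA came from the exoRNeasy Maxi kit and went into SMARTer Stranded Total RNA libraries, whereas cellular RNA came from the miRNeasy Micro kit and went into VAHTS Universal libraries. Compartment and kit therefore cannot be told apart in any comparison of exosomes with cells.

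Aminoacyl-tRNA synthetases join each amino acid to its tRNA and so supply the charged tRNAs that the ribosome reads. Most amino acids have a cytosolic enzyme and a separate, nuclear-encoded enzyme that is imported into mitochondria. Several cytosolic enzymes are held together in the multi-synthetase complex by the scaffold proteins AIMP1, AIMP2 and EEF1E1. Shortage of charged tRNA is sensed by the kinase GCN2, encoded by EIF2AK4, which raises translation of the transcription factor ATF4, and genes of several cytosolic synthetases are known ATF4 targets. The heart depends on mitochondrial translation, and inherited defects of some mitochondrial synthetases, such as AARS2 and YARS2, affect heart or skeletal muscle.

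Exosome libraries held 535442 to 587783 gene reads in Ang and 717263 to 745311 in Con, and cell libraries 9202471 to 10623090 in Ang and 9442962 to 11212674 in Con. The synthetase genes took 0.199% to 0.249% of gene reads in exosomes and 0.282% to 0.318% in cells, which is 1168 to 1855 reads per exosome library and 27379 to 34047 reads per cell library. Counting error alone is thus far larger for a synthetase mRNA in exosomes. Libraries of 1 group differed by more than sampling noise. All 8 fibroblast markers examined were listed. Marker levels are given in CPM (reads scaled to a common library size), here by raw totals. The fibroblast markers summed to 8013 to 8627 CPM in Ang exosomes and 7282 to 8545 in Con exosomes. In cells the sum was 8356 to 9419 CPM in Ang and 9135 to 10064 in Con. Of 12 cardiomyocyte markers only ACTN2 was listed in exosomes, at 0 to 5.60 CPM in Ang and 6.97 to 9.46 in Con, and 7 were listed in cells, with a sum of 10.6 to 11.01 CPM in Ang and 9.48 to 11.4 in Con. MYH6, MYH7, TNNC1, MYL2 and MYL7 were listed in neither compartment, so most sarcomere genes among these markers were missing or low. Blood and serum markers summed to 0 CPM in every Ang exosome library, to 0 to 38.9 CPM in Con exosomes and to at most 2.82 CPM in cells.

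Synthetase mRNAs spanned a wide range of abundance, with the cytosolic enzymes above their mitochondrial counterparts. Per kilobase of exon, the level in exosomes ran from 1.26 for MARS2 to 71.7 for KARS1, and in cells from 2.48 for MARS2 to 77.8 for SARS1 (means of 6 libraries each, CPM per kb). In cells, the next levels per kb below SARS1 were 71.5 for QARS1, 63.3 for EPRS1 and 53.5 for AARS1. In exosomes, KARS1 was followed by AARS1 at 64.8, SARS1 at 58.5 and RARS1 at 47.7 CPM per kb. These neighbours lay within each other's spread in exosomes, where the SD over 6 libraries was 12.3 for KARS1, 12.7 for AARS1 and 52.7 for SARS1. Set against the mitochondrial enzyme of the same amino acid, the cytosolic enzyme had the higher level per kb in 15 of 16 pairs in exosomes and in all 17 pairs in cells. The pairs are not all separate, since FARS2 was paired with both FARSA and FARSB, and EPRS1 with both EARS2 and PARS2. Isoleucine was the exception in exosomes, with 18.2 CPM per kb for IARS1 and 23.3 for IARS2. Over 34 genes, log2 level per kb in exosomes followed that in cells with Pearson's r of 0.910 and Spearman's rho of 0.885, a description over genes that share libraries and annotation.

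**Figure D1:**
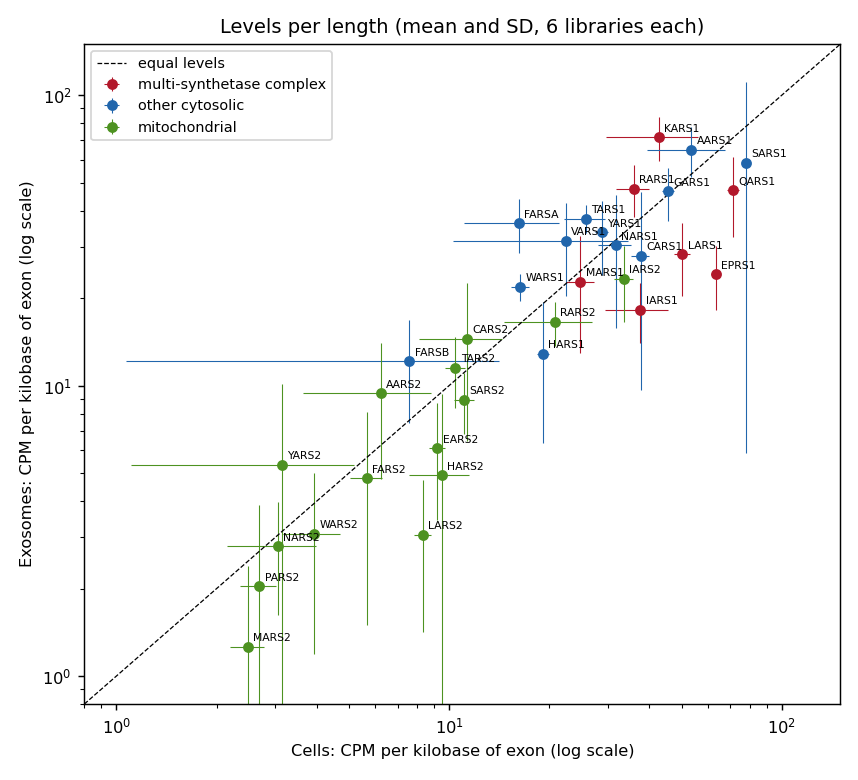
Mean level of 34 synthetase mRNAs in exosomes (vertical axis) against cells (horizontal axis), both in CPM per kilobase of exon on log axes, with SD over 6 libraries in each compartment as bars (lower bars shortened where the SD nears the mean, since a log axis has no 0) and equal levels as the dashed line. KARS1 and FARSA sit above the line, and EPRS1, IARS1, LARS1 and LARS2 below it.

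Exosomes against cells was the comparison in which synthetase mRNAs passed the test. EPRS1, LARS1, IARS1 and QARS1, all subunits of the multi-synthetase complex, were lower in exosomes than in cells, as were HARS1 and the mitochondrial LARS2 and IARS2. FARSA, KARS1, TARS1 and WARS1 were higher in exosomes. Of 34 synthetase genes tested, 4 were called higher and 7 lower by edgeR's quasi-likelihood test at an adjusted p of 0.05, against 17.6% of all 11811 genes called higher and 19.4% called lower. The share of synthetase genes called was thus not above that of all genes, 37.1% of which were called. Their median log2 fold change was -0.19, and that of all genes -0.15. In 4 genes (KARS1, TARS1, WARS1 and FARSA) every exosome library was above every cell library, where 10.1% of all genes were, and in 4 (LARS2, LARS1, EPRS1 and QARS1) every one was below, where 13.1% were, 23.2% in both directions. The log2 fold changes of the synthetase genes ran from -1.44 for LARS2 to 1.17 for FARSA. Since the RNA is from bulk material, fewer cells or vesicles that carry an mRNA and less of it in each cannot be told apart. Scaling to raw totals, which shifts the median of all genes to -0.36, ended the calls of TARS1 and WARS1 (adjusted p of 0.064 and 0.254).

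**Figure D2:**
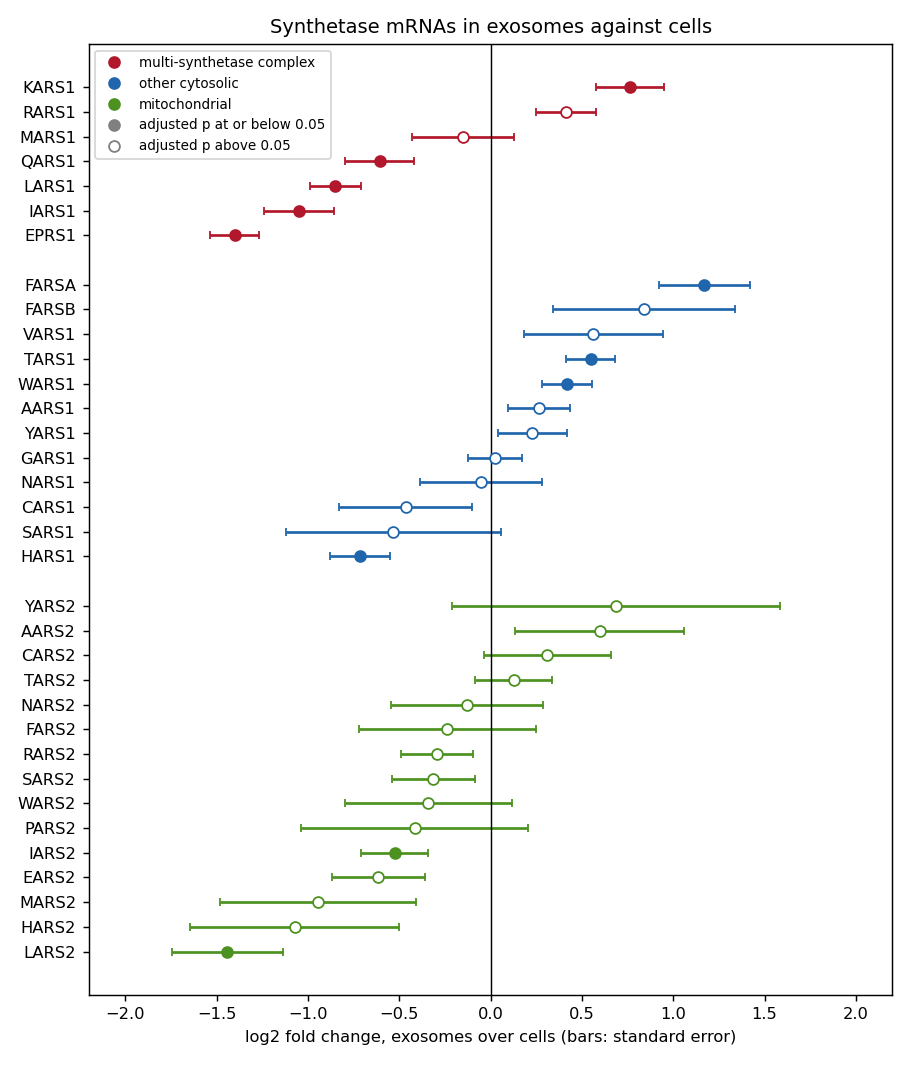
Fitted log2 fold change of exosomes over cells for 34 synthetase mRNAs (horizontal axis), grouped as complex subunits, other cytosolic enzymes and mitochondrial enzymes, with the standard error as bars. Filled points have an adjusted p at or below 0.05: 4 lie right of 0 and 7 left of it.

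Of the 7 complex subunits measured here, 4 were called lower and 1 higher in exosomes, against 19.4% of all genes lower and 17.6% higher, and their median log2 fold change was -0.61, against -0.15 for all genes. EPRS1, the fused enzyme for glutamate and proline, had the smallest p of all synthetase genes. It had 109, 118 and 88.1 CPM in Ang exosomes, 104, 135 and 174 CPM in Con exosomes, 322, 324 and 322 CPM in Ang cells and 326, 304 and 306 CPM in Con cells. Every exosome library was below every cell library, and the log2 fold change was -1.40 ± 0.14 (SE, adjusted p = 7.9e-06). LARS1 charges leucine tRNA and is also known as a leucine sensor of mTORC1 signalling. It had 122, 101 and 108 CPM in Ang exosomes, 175, 189 and 113 CPM in Con exosomes, 248, 240.3 and 244 CPM in Ang cells and 247, 212 and 243 CPM in Con cells. The compartments did not overlap, the Ang exosomes held the lowest value and the log2 fold change was -0.85 ± 0.14 (adjusted p = 0.000501). Within Con libraries alone the LARS1 difference was -0.55 (adjusted p = 0.117), and within Ang libraries alone it was -1.13 (adjusted p = 0.00437).

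IARS1, the isoleucine enzyme, had 113, 103 and 86.1 CPM in Ang exosomes, 53.2, 83.7 and 85.6 CPM in Con exosomes, 198, 195 and 196 CPM in Ang cells and 189, 101 and 199 CPM in Con cells. Con cell replicate 2 was near the level of exosomes, so the compartments overlapped, although 5 of 6 cell libraries lay above every exosome library; the log2 fold change was -1.05 ± 0.19 (adjusted p = 0.00106). QARS1 charges glutamine tRNA. It had 120.3, 93.7 and 190.3 CPM in Ang exosomes, 164, 159 and 87.1 CPM in Con exosomes, 216, 204 and 208 CPM in Ang cells and 216, 204 and 193 CPM in Con cells. No exosome library reached the lowest cell library, by a margin of less than 3 CPM, and the log2 fold change was -0.61 ± 0.19 (adjusted p = 0.0246). This call was lost when any of 5 libraries was left out, Ang exosome replicate 1, Ang cell replicates 1 and 3, or Con cell replicates 1 and 2 (adjusted p of 0.0511 to 0.0590).

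KARS1, the lysine enzyme of both cytosol and mitochondria, went the other way from these subunits. It had 144, 147 and 178 CPM in Ang exosomes, 179.8, 172 and 227 CPM in Con exosomes, 99.03, 99.9 and 54.1 CPM in Ang cells and 141, 92.9 and 137 CPM in Con cells. All exosome libraries were above all cell libraries, with Ang cell replicate 3 the lowest of all, and the log2 fold change was 0.76 ± 0.19 (adjusted p = 0.00673). RARS1, for arginine, averaged 108 ± 21.8 CPM in exosomes and 81.2 ± 9.202 CPM in cells (SD, n = 6 each). MARS1, for methionine, averaged 66.2 ± 28.6 CPM in exosomes and 71.9 ± 6.94 CPM in cells (SD, n = 6 each). Neither passed in edgeR (adjusted p of 0.0686 and 0.696), but DESeq2 called RARS1 (adjusted p = 0.00505). MARS1 shares 2.13% of its exon bases with DDIT3 on the other strand. Of the 3 scaffold mRNAs, AIMP1 was lower in exosomes, at 66.9 ± 9.67 CPM in exosomes and 94.3 ± 5.77 CPM in cells (log2 fold change -0.49, adjusted p = 0.0201). AIMP2 and EEF1E1 did not pass in edgeR, with log2 fold changes of 0.29 and 0.69, but DESeq2 called EEF1E1 (adjusted p = 0.0225). Leaving out Ang cell replicate 1 or 3 or Con cell replicate 1 ended the AIMP1 call (adjusted p of 0.0521 to 0.0537).

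Among the 12 cytosolic enzymes outside the complex, 3 were called higher and 1 lower, against 17.6% and 19.4% of all genes, with a median log2 fold change of 0.25; counts this small do not set these enzymes apart, and on raw totals only FARSA stayed called higher. FARSA, the alpha subunit of the phenylalanine enzyme, had 98.95, 53.3 and 78.1 CPM in Ang exosomes, 74.8, 64.6 and 85.6 CPM in Con exosomes, 35.7, 38.1 and 38.4 CPM in Ang cells and 17.8, 48.00 and 25.2 CPM in Con cells. The lowest exosome library was above the highest cell library, and the log2 fold change was 1.17 ± 0.25 (adjusted p = 0.00307). FARSB, the beta subunit that pairs with FARSA in the same tetramer, had a log2 fold change of 0.84 ± 0.50 and did not pass (adjusted p = 0.206), and its cell libraries differed widely. TARS1, the threonine enzyme, had 192, 158 and 152 CPM in Ang exosomes, 161, 166 and 198 CPM in Con exosomes, 148, 116 and 111 CPM in Ang cells and 100.2, 109 and 119.9 CPM in Con cells. All 6 exosome libraries were above all 6 cell libraries, but Ang cell replicate 1 came within 5 CPM of the lowest of them; the log2 fold change was 0.55 ± 0.13 (adjusted p = 0.00692).

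WARS1, the tryptophan enzyme and a known interferon-induced gene, had 95.1, 79.04 and 98.2 CPM in Ang exosomes, 87.7, 109 and 88.6 CPM in Con exosomes, 73.4, 72.99 and 71.2 CPM in Ang cells and 66.4, 62.4 and 70.8 CPM in Con cells. The compartments did not overlap and the log2 fold change was 0.42 ± 0.14 (adjusted p = 0.0309). Leaving out replicate 2 of the Con exosomes or of the Con cells raised the adjusted p of WARS1 to 0.0518 and 0.0515, and the replicate number as a block raised it to 0.0602. WARS1 shares 11.3% of its exon bases with genes on the other strand, among them WDR25. HARS1, the histidine enzyme, had 36.9, 25.7 and 32.05 CPM in Ang exosomes, 61.9, 74.9 and 96.1 CPM in Con exosomes, 78.7, 78.5 and 81.4 CPM in Ang cells and 87.5, 80.5 and 80.1 CPM in Con cells. The 3 Ang exosome libraries were the lowest of all, Con exosome replicates 1 and 2 were also below the cells and Con exosome replicate 3 was above them. The log2 fold change of -0.71 ± 0.16 (adjusted p = 0.00445) stood beside -1.33 within Ang libraries (adjusted p = 0.0109) and -0.09 within Con libraries (adjusted p = 0.811). The remaining 8 cytosolic enzymes outside the complex did not pass and had log2 fold changes from -0.53 for SARS1 to 0.84 for FARSB.

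**Figure D3:**
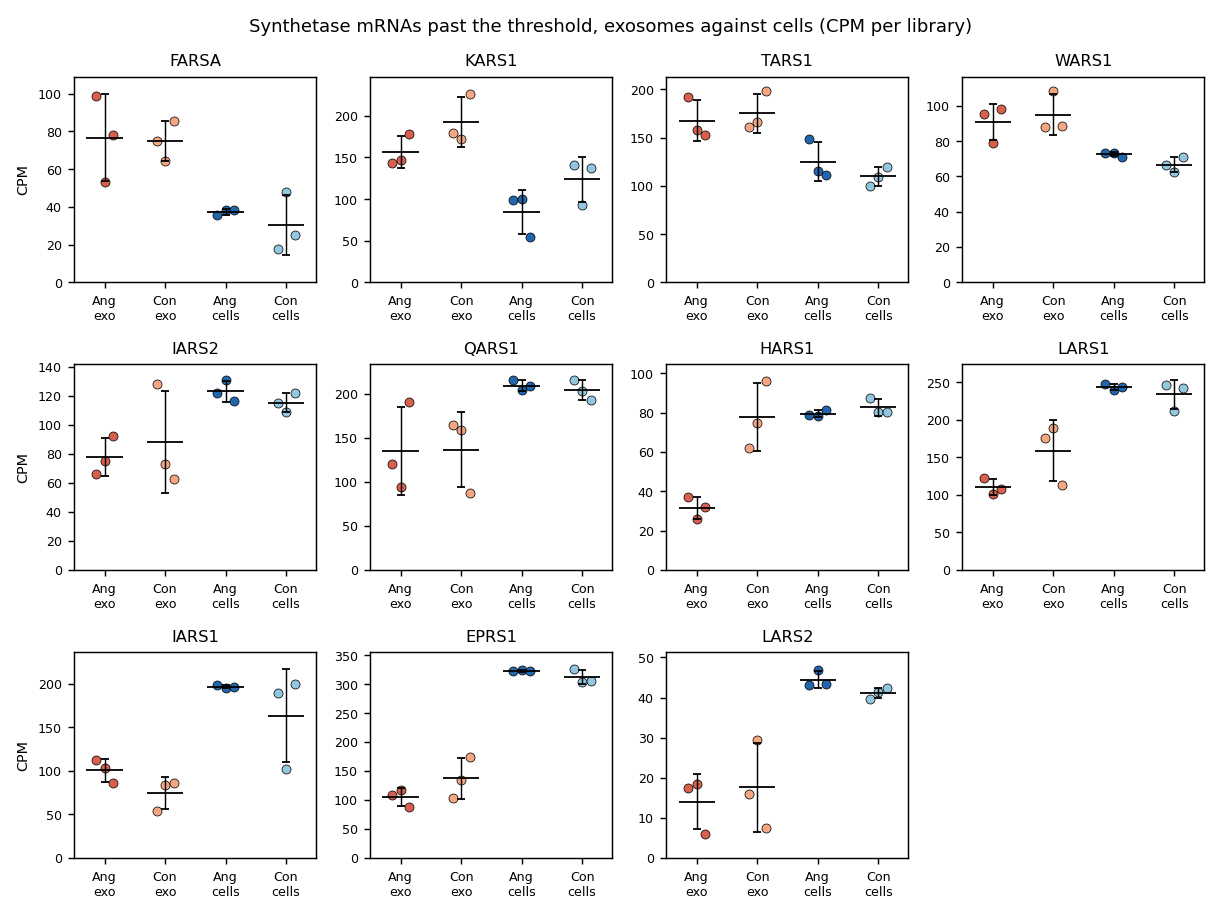
CPM per library of the 11 synthetase mRNAs called between exosomes and cells, with 1 panel per gene, Ang and Con exosomes left of Ang and Con cells, and the mean and SD of 3 libraries as lines. EPRS1, LARS1, LARS2 and QARS1 lie lower in all 6 exosome libraries than in any cell library, and HARS1 is low in the 3 Ang exosome libraries, at 25.7 to 36.9 CPM.

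No mitochondrial synthetase was called higher in exosomes and 2 of 15 were called lower, with a median log2 fold change of -0.31. Since 19.4% of all genes were called lower, this count is not a result about mitochondrial enzymes. LARS2, the mitochondrial leucine enzyme, had 17.5, 18.4 and 6.01 CPM in Ang exosomes, 15.8, 29.4 and 7.505 CPM in Con exosomes, 43.1, 46.9 and 43.4 CPM in Ang cells and 39.7, 41.3 and 42.4 CPM in Con cells. All exosome libraries were below all cell libraries, at 3 to 20 reads each, and the log2 fold change was -1.44 ± 0.30 (adjusted p = 0.00277). IARS2, the mitochondrial isoleucine enzyme, had 65.97, 75.4 and 92.1 CPM in Ang exosomes, 128, 73.4 and 63.04 CPM in Con exosomes, 122, 131 and 117 CPM in Ang cells and 115, 109 and 122 CPM in Con cells. Con exosome replicate 1 was above 5 of the 6 cell libraries, the other exosome libraries were below all of them, and the log2 fold change was -0.53 ± 0.18 (adjusted p = 0.0379). The IARS2 call was lost on leaving out any library other than Ang exosome replicate 3 or Con exosome replicate 1 (adjusted p of 0.0613 to 0.0891), and with DESeq2 size factors (0.0513) or the replicate number as a block (0.0587).

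The other 13 mitochondrial enzymes had log2 fold changes from -1.07 for HARS2 to 0.69 for YARS2, with wide errors, as 7 of them had 53 reads or fewer over the 6 exosome libraries. Leucine and isoleucine were the amino acids for which both the cytosolic and the mitochondrial mRNA were called lower. For phenylalanine, threonine, tryptophan, histidine, glutamate and proline edgeR called the cytosolic mRNA and not the mitochondrial one. The difference between partners was not tested. FARS2, the mitochondrial phenylalanine enzyme, had 0, 14.7 and 14.02 CPM in Ang exosomes, 2.88, 10.3 and 15.01 CPM in Con exosomes, 12.4, 9.17 and 10.6 CPM in Ang cells and 12.4, 11.6 and 10.9 CPM in Con cells. Its libraries overlapped between compartments, with none of the separation seen for FARSA. TARS2, for threonine, had 32.98, 33.1 and 44.1 CPM in Ang exosomes, 25.9, 19.1 and 37.5 CPM in Con exosomes, 30.7, 29.9 and 25.6 CPM in Ang cells and 30.2, 27.5 and 30.7 CPM in Con cells. WARS2, for tryptophan, had 0, 16.5 and 8.01 CPM in Ang exosomes, 10.1, 7.34 and 10.5 CPM in Con exosomes, 12.5, 12.1 and 11.5 CPM in Ang cells and 10.8, 6.99 and 12.99 CPM in Con cells. Both overlapped between compartments, and WARS2 had 32 reads in all over the 6 exosome libraries. EARS2 and PARS2 do the work of EPRS1 in mitochondria, for glutamate and proline. EARS2 had 34.9, 12.9 and 46.1 CPM in Ang exosomes, 21.6, 30.8 and 19.5 CPM in Con exosomes, 40.7, 41.6 and 44.8 CPM in Ang cells and 43.3, 42.3 and 38.1 CPM in Con cells. PARS2 had 5.82, 0 and 8.01 CPM in Ang exosomes, 2.88, 0 and 12.01 CPM in Con exosomes, 5.71, 6.05 and 6.35 CPM in Ang cells and 7.34, 7.09 and 5.33 CPM in Con cells. Exosome libraries spread above and below the cells for PARS2. For EARS2, Ang exosome replicate 3 was above the cells and the other exosome libraries below them. In edgeR the log2 fold changes were -0.61 for EARS2 (adjusted p = 0.0791) and -0.42 for PARS2 (adjusted p = 0.628), but DESeq2 called EARS2 (adjusted p = 0.00206). VARS2, the mitochondrial valine enzyme, had 17.96, 16.8 and 15.6 CPM in Ang cells, against 17.8, 28.7 and 15.4 CPM in Con cells, with overlapping groups.

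Of 7 genes that complete mitochondrial tRNA charging and delivery, 1 was called lower, no more than the 19.4% of all genes. It was TUFM, the mitochondrial elongation factor Tu, at 256 ± 46.5 CPM in exosomes and 347 ± 13.1 CPM in cells (log2 fold change -0.45, adjusted p = 0.00546). GATB, GATC, QRSL1, MTFMT, TRMT5 and TSFM did not pass in edgeR, but DESeq2 called QRSL1 (adjusted p = 0.0234). Among other genes that act beside the synthetases, DTD1, a proofreading deacylase, was higher at 83.1 ± 24.1 CPM in exosomes and 51.9 ± 1.17 CPM in cells (log2 fold change 0.68, adjusted p = 0.0132; 0.0638 on raw totals).

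Summed over genes, the complex subunits reached 744 to 859 CPM in Ang exosomes, 834 to 895 in Con exosomes, 1184 to 1255 in Ang cells and 1066 to 1263 in Con cells. The 12 other cytosolic enzymes summed to 1110 to 1372 CPM in Ang exosomes, 1357 to 1392 in Con exosomes, 1185 to 1255 in Ang cells and 1136 to 1193 in Con cells. On raw totals this second sum averaged 1230 ± 100.3 CPM in exosomes and 1282 ± 42.5 CPM in cells (SD, n = 6 each), against 1325 ± 106 and 1190 ± 41.2 CPM on the TMM scale, so its order depended on the scaling. Complex subunits therefore made up 36.5% to 40.1% of the cytosolic sum in exosomes and 48.4% to 52.1% in cells. The mitochondrial enzymes summed to 312 ± 18.8 CPM in Ang exosomes, 353 ± 68.4 in Con exosomes, 436 ± 28.7 in Ang cells and 403 ± 12.7 in Con cells (SD, n = 3 each).

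Exon length was weakly related to the fold change. Over 34 synthetase genes, the log2 of exon length and the log2 fold change of exosomes over cells had r of -0.34 and rho of -0.30. Over 11799 genes tested the same relation had r of -0.18 and rho of -0.22. Over the 34 genes, the log2 of coding length was less related to the fold change, with r of -0.25 and rho of -0.14. Over the 19 cytosolic genes r was -0.50 for coding length and -0.41 for exon length. Over the 15 mitochondrial ones it was -0.06 and -0.46. The genes were also split at a coding length of 2500 bases, an arbitrary cut. LARS2 (2709 bases, called lower) and MARS1 (2700 bases, not called) lay close above it. Of 9 synthetase genes with a coding length over 2500 bases, 5 (EPRS1, IARS1, LARS1, IARS2 and LARS2) were called lower and 0 higher. Of the 25 shorter ones, 2 were called lower and 4 higher, against 19.4% of all genes lower and 17.6% higher. GC content of the transcript had r of 0.24 with the fold change over the 34 genes. Whether length or GC plays a part in the differences was not tested.

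Genes of the ATF4 pathway were set beside the synthetases because several cytosolic synthetase genes are ATF4 targets. Of 26 pathway genes tested, 10 were called higher and 5 lower in exosomes, against 17.6% of all genes higher and 19.4% lower, with a median log2 fold change of 0.46. The count of lower genes was thus near that of all genes. DDIT3, which encodes the stress transcription factor CHOP, had 103, 149 and 112 CPM in Ang exosomes, 138, 103 and 123 CPM in Con exosomes, 1.94, 1.38 and 1.76 CPM in Ang cells and 1.89, 1.63 and 1.91 CPM in Con cells. All exosome libraries were far above all cell libraries, and the log2 fold change was 6.10 ± 0.21 (adjusted p = 7.3e-10). DDIT3 had 15 to 23 reads in each cell library. Its exons overlap those of MARS1 on the other strand, and whether counting used strand is not given. Whether shared reads play a part was not tested. CEBPB, another transcription factor of the response, averaged 412 ± 114 CPM in exosomes and 86.5 ± 6.52 CPM in cells (log2 fold change 2.22, adjusted p = 6.2e-08). SLC7A5, a leucine transporter, averaged 553 ± 109 CPM in exosomes and 123 ± 6.12 CPM in cells (log2 fold change 2.16, adjusted p = 6.2e-08). EIF2AK3, which encodes the kinase PERK, was lower at 14.2 ± 13.7 CPM in exosomes and 50.1 ± 4.28 CPM in cells (log2 fold change -2.80, adjusted p = 2.8e-06), with 1 read in each Ang exosome library. ALDH18A1, of proline synthesis, and SLC7A11, the cystine transporter, were also lower, with log2 fold changes of -1.37 and -1.24 (adjusted p of 0.000307 and 0.000282). ATF4 itself averaged 449.9 ± 42.8 CPM in exosomes and 437 ± 20.1 CPM in cells and did not pass (adjusted p = 0.722).

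The promoters of the synthetase genes were searched for the 8 letters TTGCATCA, a core form of the element that ATF4 binds together with C/EBP proteins, or their reverse complement TGATGCAA on the given strand. Windows of 300 bases, 250 before to 50 after each RefSeq start in GRCh38.p14, were found for 30 of the 35 genes. The letters stood in 6 of these (20%), which were 6 of the 16 matched cytosolic and 0 of the 14 matched mitochondrial genes, and in 295 of all 27305 genes (1.08%). A match is a description and does not show that a factor binds. The 8 letters are shared because the search required them, and the bases beside them were not compared. The 30 bases around each match are given with the matched letters in capitals and each gene read 5′ to 3′ on its own strand:
AARS1 (chr16:70289675-70289704, minus strand): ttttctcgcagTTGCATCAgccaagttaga
CARS1 (chr11:3057407-3057436, minus strand): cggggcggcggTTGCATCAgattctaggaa
IARS1 (chr9:92293692-92293721, minus strand): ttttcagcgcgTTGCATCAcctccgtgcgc
MARS1 (chr12:57488053-57488082, plus strand): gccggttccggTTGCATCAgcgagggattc
NARS1 (chr18:57621804-57621833, minus strand): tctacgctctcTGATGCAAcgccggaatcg
TARS1 (chr5:33440956-33440985, plus strand): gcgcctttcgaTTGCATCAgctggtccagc
In exosomes against cells, TARS1 was called higher and IARS1 lower among these 6, and AARS1, CARS1, MARS1 and NARS1 had log2 fold changes of 0.26, -0.46, -0.15 and -0.05 without a call. The genes that carry the letters thus stood on both sides of 0.

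Ang was compared with Con within each compartment to see whether the label changed synthetase mRNAs in the cells or in what they released. In cells, edgeR's quasi-likelihood test called 0% of 13331 genes and none of the 35 synthetase genes, while DESeq2 called 60 genes, none of them a synthetase. At an unadjusted p of 0.05 or below, 816 genes and 1 synthetase gene, RARS2, stood in cells. The median log2 fold change of Ang over Con was 0.04 for the synthetase genes and -0.00076 for all genes. RARS2, the mitochondrial arginine enzyme, had 50.6, 44.5 and 46.1 CPM in Ang cells, against 36.02, 23.3 and 26.4 CPM in Con cells. Every Ang cell library was above every Con cell library, and the log2 fold change was 0.71 ± 0.17 (adjusted p = 0.780; adjusted p of 0.084 with DESeq2). LARS2, GARS1, WARS1, RARS2 and MARS2 were without overlap and above Con in Ang cells, 5 of 35, where 7.01% of all genes were (GARS1 had 128, 121 and 125 CPM in Ang cells, against 114, 119 and 117 CPM in Con cells); none was without overlap below Con, where 6.89% were.

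MARS2, the mitochondrial methionine enzyme, had 7.74, 8.89 and 8.03 CPM in Ang cells, against 6.75, 6.802 and 6.74 CPM in Con cells. The groups did not overlap, by a margin of under 1 CPM, and the log2 fold change was 0.27 ± 0.11 (adjusted p = 0.814). KARS1 had a log2 fold change of -0.56 ± 0.29 in cells (adjusted p = 0.834), with Con cell replicate 2 inside the Ang range. FARSB had 26.4, 5.04 and 8.03 CPM in Ang cells, against 55.3, 9.68 and 48.8 CPM in Con cells. Its libraries split within both groups, Con cell replicate 2 lying with the lower Ang libraries, and the log2 fold change of -1.54 ± 0.87 did not pass (adjusted p = 0.834).

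In exosomes, 0.012% of 8327 genes, 1 gene, was called between Ang and Con, and none of the 28 synthetase genes that passed the filter on low counts. The 6 left out by that filter were FARS2, MARS2, NARS2, PARS2, WARS2 and YARS2. At an unadjusted p of 0.05 or below, 316 genes and 1 synthetase gene, HARS1, stood in exosomes, and DESeq2 called 16 genes, none of them a synthetase. HARS1 had 19, 14 and 16 reads in Ang exosomes, against 43, 51 and 64 reads in Con exosomes. The highest Ang library was below the lowest Con library, and the log2 fold change was -1.29 ± 0.40 (adjusted p = 0.999). In cells HARS1 had 78.7, 78.5 and 81.4 CPM in Ang cells, against 87.5, 80.5 and 80.1 CPM in Con cells. These groups overlapped, and the log2 fold change was -0.06 ± 0.06 (adjusted p = 0.875).

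The histidine pair lies head to head on chromosome 5. RefSeq starts of HARS1 on the minus strand and of HARS2 on the plus strand, chr5:140691370 and chr5:140691455 in GRCh38.p14, have 84 bases between them, and in GENCODE release 29 exons of genes on the other strand cover 15.5% of the exon bases of HARS1 (HARS2 and WDR55) and 14.2% of those of HARS2 (HARS1). HARS2 had 13, 0 and 0 reads in Ang exosomes, against 22, 14 and 4 reads in Con exosomes. The groups overlapped at these few reads, and the log2 fold change was -1.19 ± 1.31 (adjusted p = 0.999). In cells HARS2 had 22.7, 36.04 and 27.7 CPM in Ang cells, against 21.3, 29.9 and 23.97 CPM in Con cells.

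AARS1, the alanine enzyme, had 217, 164 and 186 CPM in Ang exosomes, against 268, 270.1 and 248 CPM in Con exosomes. The Ang exosomes were below the Con exosomes without overlap, and the log2 fold change was -0.46 ± 0.22 (adjusted p = 0.999). LARS1 and IARS1 followed by p, with log2 fold changes of -0.52 ± 0.29 and 0.44 ± 0.33 (adjusted p = 0.999 each). Without overlap, AARS1 and HARS1 were below Con in Ang exosomes, 2 of 28 where 5.61% of all genes were, and IARS1 was above, 1 of 28 where 5.16% were.

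**Figure D4:**
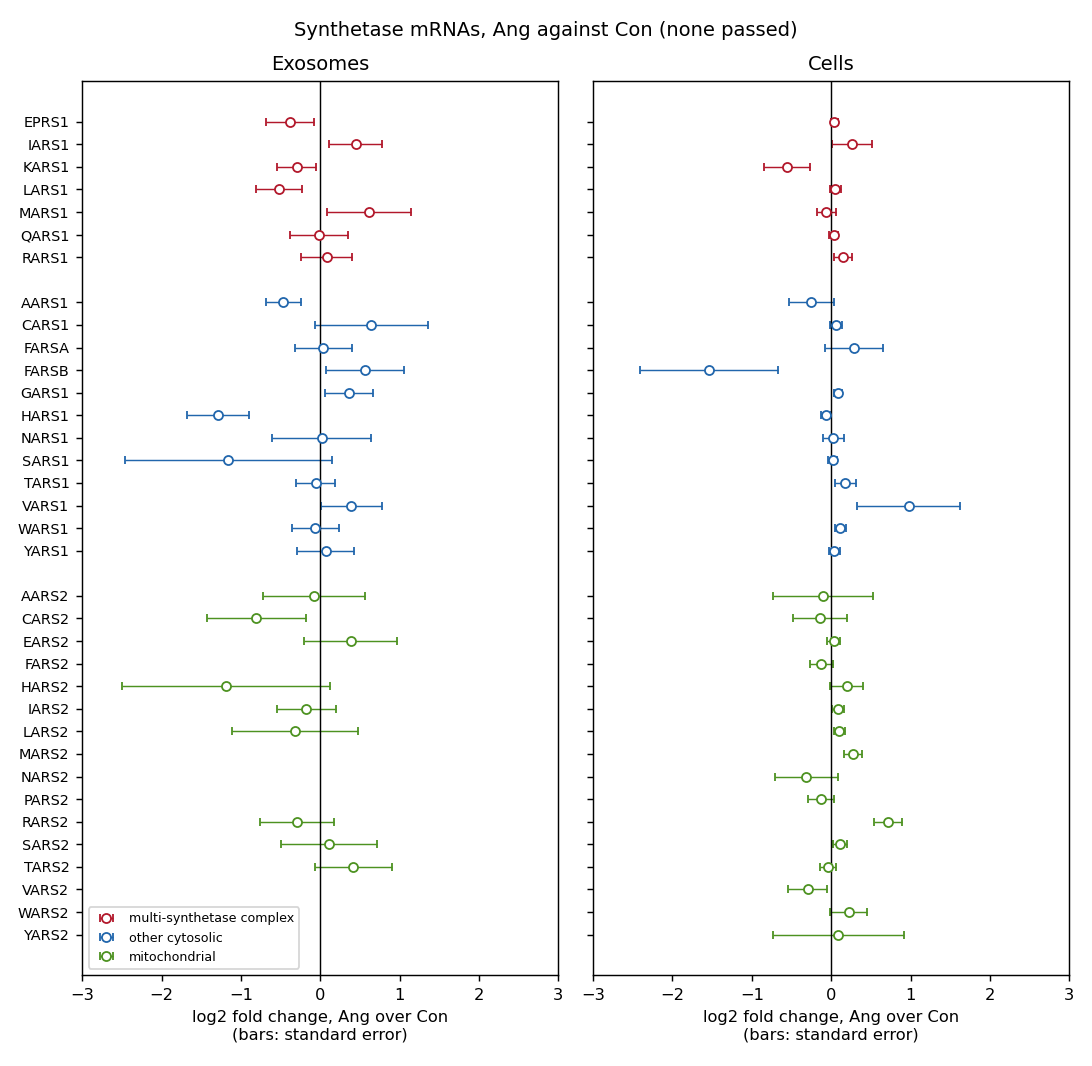
Fitted log2 fold change of Ang over Con in exosomes (left) and in cells (right) for each synthetase mRNA tested, with the standard error as bars. All points are open because every adjusted p was above 0.05, and HARS1 stands at -1.29 in exosomes and -0.06 in cells.

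The difference of the Ang against Con change between exosomes and cells was tested over 11811 genes, of which 0.0254% were called, 0.00847% upward and 0.0169% downward (3 genes), and none of 34 synthetase genes was. HARS1, RARS2 and LARS1 had the smallest p-values. For HARS1 the change in exosomes minus that in cells was -1.24 ± 0.33 on the log2 scale (adjusted p = 0.415), but DESeq2 called it (adjusted p = 0.000932) among 368 genes. For RARS2 it was -1.02 ± 0.40 (adjusted p = 0.550) and for LARS1 -0.59 ± 0.28 (adjusted p = 0.624). RARS2 in exosomes had 27.2, 23.9 and 30.05 CPM in Ang exosomes, against 37.4, 35.2 and 27.02 CPM in Con exosomes. The exosome groups overlapped, Con exosome replicate 3 lying between Ang exosome replicates, unlike the cell groups.

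Several synthetase mRNAs varied widely within a group. VARS1, the valine enzyme, had 115, 137 and 133 CPM in Ang cells, against 135, 30.8 and 28.6 CPM in Con cells. Con cell replicates 2 and 3 were low while replicate 1 lay with the Ang cells, so the log2 fold change of 0.98 ± 0.65 of Ang over Con in cells did not pass (adjusted p = 0.839). SARS1, the serine enzyme, had 16, 2 and 88 reads in Ang exosomes, against 162, 141 and 21 reads in Con exosomes. The values spread over both labels, and Ang exosome replicate 2 had 2 reads against an exosome median of 54.5, whereas the 6 cell libraries lay within 144 to 156 CPM. AARS2, the mitochondrial alanine enzyme, had 337, 328 and 61 reads in Ang cells, against 236, 283 and 285 reads in Con cells, with a median of 284; Ang cell replicate 3 stood apart. A library more than 4-fold below a median of at least 40 reads occurred in 1 of 18 synthetase genes in exosomes and 1 of 35 in cells, and in 11.5% and 2.63% of all genes with such a median. Across the 6 exosome libraries the coefficient of variation ran from 10.95% for WARS1 to 129% for YARS2, and across the 6 cell libraries from 2.66% for SARS1 to 85.9% for FARSB.

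**Figure D5:**
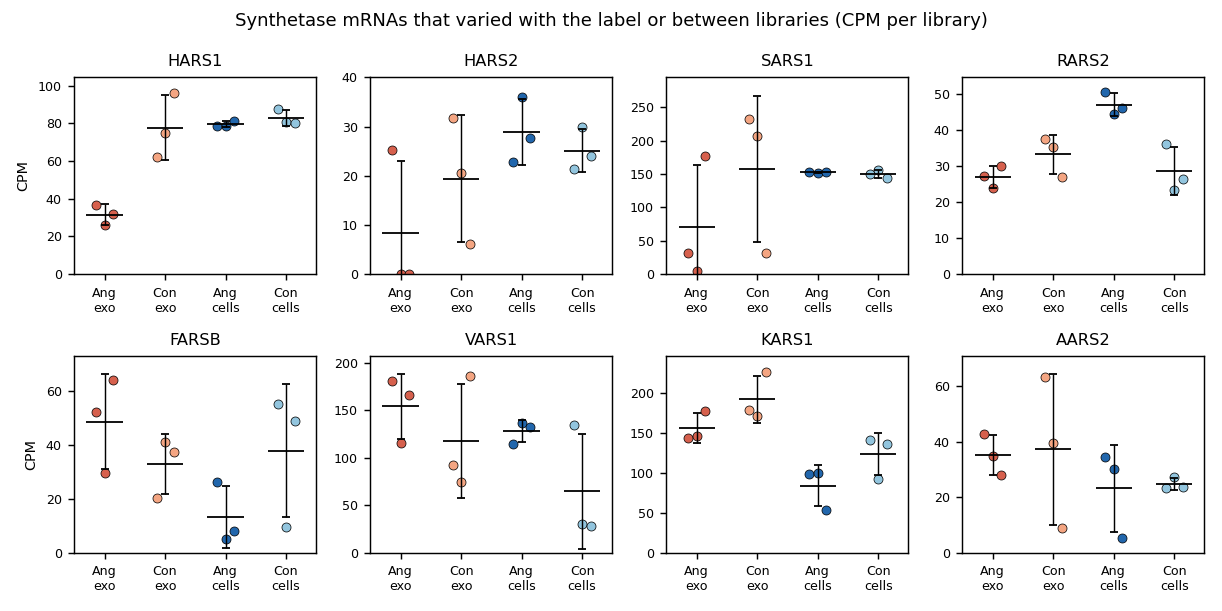
CPM per library of 8 synthetase mRNAs that varied with the label or between libraries, with Ang and Con exosomes left of Ang and Con cells and the mean and SD of 3 libraries as lines. RARS2 lies at 44.5 to 50.6 CPM in Ang cells and 23.3 to 36.0 in Con cells, and SARS1 at 3.68 to 176 CPM in Ang exosomes and 31.5 to 233 in Con exosomes.

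Circular RNAs gave another readout of the same genes. A circular RNA is closed by a back-splice that joins the end of an exon to the start of the same or an earlier exon, and the deposited values were reads across that junction, listed from 2 reads upward. Synthetase genes hosted 4 of the 939 circular RNAs listed in exosomes, with 18 junction reads, and 12 of the 5179 listed in cells, with 68 junction reads from 8 genes. In exosomes none was listed in more than 1 library, and in cells 5 were. Exons 2 to 5 of RARS1, chr5:168488602-168494650 in GRCh38, closed the circle listed in the most libraries, at 2, 3 and 7 reads in Ang cells and 4, 0 and 4 reads in Con cells, and it was not listed in exosomes. The circle of RARS1 exons 2 to 7, chr5:168488602-168497348, starts at the same exon and had 7 reads in Ang exosome replicate 1 and 4 reads in Ang cell replicate 3. FARSA exons 5 to 7, chr19:12928342-12928847, had 3 reads in Con exosome replicate 3, 3 reads in Ang cell replicate 2 and 3 reads in Con cell replicate 3. The 30 bases on each side of these back-splices, from the GENCODE release 29 transcripts, show what a junction read must span, with 6 bases on each side of the join in capitals:
RARS1 exons 2 to 5: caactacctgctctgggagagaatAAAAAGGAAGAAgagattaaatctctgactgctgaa
RARS1 exons 2 to 7: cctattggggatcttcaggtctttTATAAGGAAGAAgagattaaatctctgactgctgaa
FARSA exons 5 to 7: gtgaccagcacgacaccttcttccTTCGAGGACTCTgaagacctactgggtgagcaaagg
Both RARS1 circles share the right side of the join, from exon 2, and differ on the left. Counts this low allow no test between groups.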

How the data were processed

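Per the labels, RNA of exosomes and of AC16 cells was sequenced, and the submitters' processing notes name GRCh38, HISAT2 and StringTie without versions; whether counting used strand is not given in the sources used here. The authors deposited read counts per gene and back-splice junction counts, which are not normalized. From these, edgeR 4.0.16 in R 4.3.3 was used (TMM scaling, filterByExpr with a minimum count of 10 and total of 15, robust quasi-likelihood F test, Benjamini-Hochberg adjustment over all genes tested, threshold 0.05), and every adjusted p in the text is from it unless DESeq2 1.42.0 is named. Exosomes against cells and the test of the difference used all 12 libraries, and Ang against Con used the 6 libraries of a compartment. A standard error is the absolute log2 fold change over the square root of F. CPM is on the TMM scale, except for the cell type markers and where raw totals are named. CPM per kb is CPM on the TMM scale divided by the exon length in GENCODE release 29. Scripts were tested on simulated data.

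The synthetase genes and all gene lists were chosen with earlier results of these data known. Values per library are given for synthetase genes past the threshold between exosomes and cells, the 4 with the smallest p in each Ang against Con test and the 3 in the test of the difference, those with a library more than 4-fold below their median, and pairs of which 1 passed; other lists give up to 3 passing genes per direction. Some genes of the other lists are not reported here. Same-numbered replicates had correlations of -0.0752 to 0.0099, so the numbers were not taken to pair libraries. Pseudogenes of AARS1, CARS1, FARSB, GARS1, KARS1, NARS1, RARS1, WARS1, IARS2, TARS2 and WARS2 could share reads with them. SARS2 could share reads with AC011455.2, which covers 67.4% of its exon bases on the same strand. Alternatives were other scalings, no filter on low counts, DESeq2, the replicate number as a block, 1 label at a time, and leaving out each library.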

Additional observations from a re-analysis of the deposited data

Results flagged for a closer look

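EIF2AK3, which encodes the kinase PERK of the ATF4 pathway, was the gene among the synthetases and lists for which the Ang against Con change differed between compartments by the test of that difference. It had 1, 1 and 1 reads in Ang exosomes, against 15, 20 and 19 reads in Con exosomes, and 469, 521 and 565 reads in Ang cells, against 591, 495 and 591 reads in Con cells. The Ang exosomes were below the Con exosomes without overlap, and the cell groups overlapped. The change in exosomes minus that in cells was -3.67 on the log2 scale (edgeR, adjusted p = 0.0293), a fitted value that rests on 1 read in each Ang exosome library. The adjusted p was 0.00428 with DESeq2 and 0.174 with the replicate number as a block. It was 0.0578 without Con exosome replicate 3 and 0.0906 to 0.129 when any 1 of the 6 cell libraries was left out.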

How the results depend on the processing

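Between exosomes and cells, 4 synthetase genes were called higher and 7 lower; raw totals gave 2 higher and 8 lower, Con libraries alone 1 higher and 2 lower, and Ang libraries alone 1 higher and 5 lower. Over all genes, Con libraries alone gave 1321 higher and 1074 lower and Ang libraries alone 1112 higher and 1015 lower, with fewer libraries in each. Leaving out 1 library gave 3 to 5 synthetase genes higher and 5 to 9 lower. DESeq2 also called RARS1 and EARS2 between exosomes and cells. Between Ang and Con in cells, DESeq2 called 60 genes and leaving out 1 library gave 0 to 3. In exosomes, no filter gave 3 genes, DESeq2 16, the replicate block 0, a fit to all 12 libraries 22, and leaving out 1 library 1 to 4. The median log2 fold change of synthetase genes in exosomes ran from -0.11 to 0.0381 over left-out libraries, and turned positive without Ang exosome replicate 3 (0.0027) or Con exosome replicate 1 (0.0381). For the difference between compartments, DESeq2 called 368 genes and 1 synthetase gene, the replicate block 1 gene, and leaving out 1 library 1 to 17; the cause was not tested. On raw totals, cytosolic sums were 2066 CPM in Con exosomes, 2615 in Ang cells and 2535 in Con cells, and mitochondrial sums 289 in Ang exosomes, 469 in Ang cells and 435 in Con cells. Circular RNAs listed in at least 2 libraries numbered 0 in exosomes and 5 in cells. Exosome libraries, with at most 745311 gene reads, limit the precision for synthetase genes with few reads.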
